A study of Homo sapiens with 9 samples.

Results

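The baseline described here is the transcriptome of U2OS cells that received a control siRNA. U2OS is an established human osteosarcoma line. The members are the 3 control libraries (labelled siNS, replicates 1 to 3) out of 9 samples in the series. They were chosen by their label, with earlier results of these data known. The cells were transfected with a non-silencing siRNA at 75 nM with a lipid reagent, RNAiMAX, and lysed 48 hours later, so the baseline is that of transfected and not of untouched cells. The other 6 samples received siRNAs against NFKB2 or RELB and are not used here. Total RNA was made into oligo-dT selected libraries, which capture polyadenylated transcripts. The labels do not say whether the 3 replicates came from separate cultures, so every SD below measures only the spread between these 3 libraries. With 1 group there is no comparison between conditions and no test.

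Osteosarcoma arises from cells of the bone-forming lineage, in which the factors RUNX2 and SP7 switch on first the collagen-rich early matrix and later the mineral-binding proteins of mature bone. U2OS is a standard line for work on DNA repair, the cell cycle and the p53 response, and it is a textbook example of a line that keeps its telomeres without telomerase, by recombination (alternative lengthening of telomeres, ALT). NF-kB is a family of 5 subunits. RELA, REL and NFKB1 serve the canonical arm, which is held in the cytoplasm by IkB inhibitors, and RELB and NFKB2 serve the non-canonical arm, which depends on the kinase NIK (gene MAP3K14).

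The deposited counts summed to 18987115, 16330036 and 18428660 in replicates 1, 2 and 3. Levels are given as counts per 1000000 (CPM) after TMM scaling of the totals, and, where genes are compared with each other, as a level per exonic length in transcripts per 1000000 (TPM). A gene is termed expressed at 1 CPM or more in each library, silent at 3 counts or fewer in each library, and low otherwise. A count of 0 allows a level of up to 0.158, 0.182 and 0.165 CPM in replicates 1, 2 and 3 (3 counts, counting error only). Of 39603 named entries, 12524 were expressed, 5107 low and 21972 silent. Among 19280 protein-coding genes, 11438 (59.3%) were expressed, 2321 low and 5521 (28.6%) silent.

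Replicate 1 stood apart from replicates 2 and 3. The log2 CPM of expressed genes correlated at a Pearson r of 0.991 between replicates 2 and 3, 0.978 between 1 and 3, and 0.962 between 1 and 2 (across genes, which are not independent replicates). A difference of more than 2-fold was seen in 0.709% of these genes between replicates 2 and 3, in 3.71% between 1 and 3, and in 9.01% between 1 and 2. Replicate 1 held the highest or lowest value for 10913 of the 12524 expressed genes and replicate 2 for 9479. For every gene 2 of the 3 libraries hold such a value. Replicate 3 held the middle value for 62.8% of the genes. The difference of replicate 1 from the others varied with base composition. Expressed genes were put into 4 groups of about equal size by transcript GC content. The median log2 ratio of replicate 1 to the mean of the other 2 libraries was 0.39 in the group of lowest GC content and -0.41 in the group of highest. Replicates 2 and 3 also differed with GC content, with a median log2 ratio of 2 to 3 from -0.20 in the lowest group to 0.05 in the highest. By exonic length the ratio of replicate 1 to the others ran from -0.23 in the shortest group to 0.25 in the longest. The part of GC content and length in the spread of single genes was not tested. Among the 460 expressed genes of the lists described below, 36 differed by more than 2-fold between their highest and lowest library, with replicate 1 lowest in 19 and highest in 17. Without replicate 1, the largest move of a mean among the 460 was that of IFIT1, from 4.32 to 3.09 CPM. With 3 libraries a mean cannot rise by more than 1.5 times when its lowest library is left out. The size of such moves therefore says little about genes with replicate 1 lowest.

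**Figure D1:**
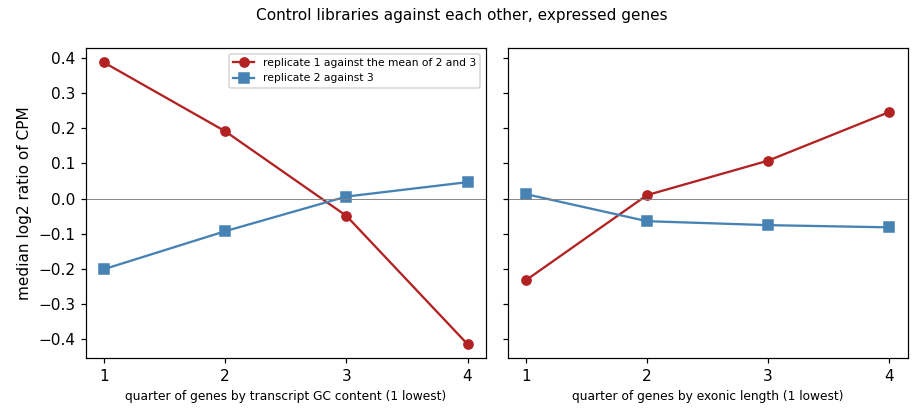
Median log2 ratio of CPM between control libraries (y axis) in 4 groups of the expressed genes ordered by transcript GC content (left) or exonic length (right); red, replicate 1 against the mean log2 level of replicates 2 and 3; blue, replicate 2 against 3. The red line falls from 0.39 to -0.41 over the GC groups, and the blue line rises from -0.20 to 0.05.

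A second limit concerns genes that the table lists more than once. For 2652 symbols, further entries carry the same symbol with a number as a suffix. Each is taken here as a further placement of the gene, though the annotation was not given. The 5005 suffix entries held at most 0.0369% of a library's counts. Of the 1253 protein-coding genes with a further placement, 80.4% were silent and 8.54% expressed. Of the 18027 without, 25.04% were silent and 62.9% expressed. For a gene with a further placement, a missing transcript cannot be told apart from reads that were not assigned to it. This covers SMARCB1, DAXX, CDKN1C, NFKBIB, TINF2, TNF, LTA, LTB, POU5F1 and PRAME, each with 3 counts or fewer in every library, and none of them is described as silent below. Counts of list members leave such genes out and say how many. A further limit is overlap with another gene on the same strand. Of 406 protein-coding genes without a further placement that share at least 50% of their exonic length this way, 51.5% were silent and 30.0% expressed. A low or silent level of such a gene is uncertain, and the share is given below only for some genes.

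**Figure D2:**
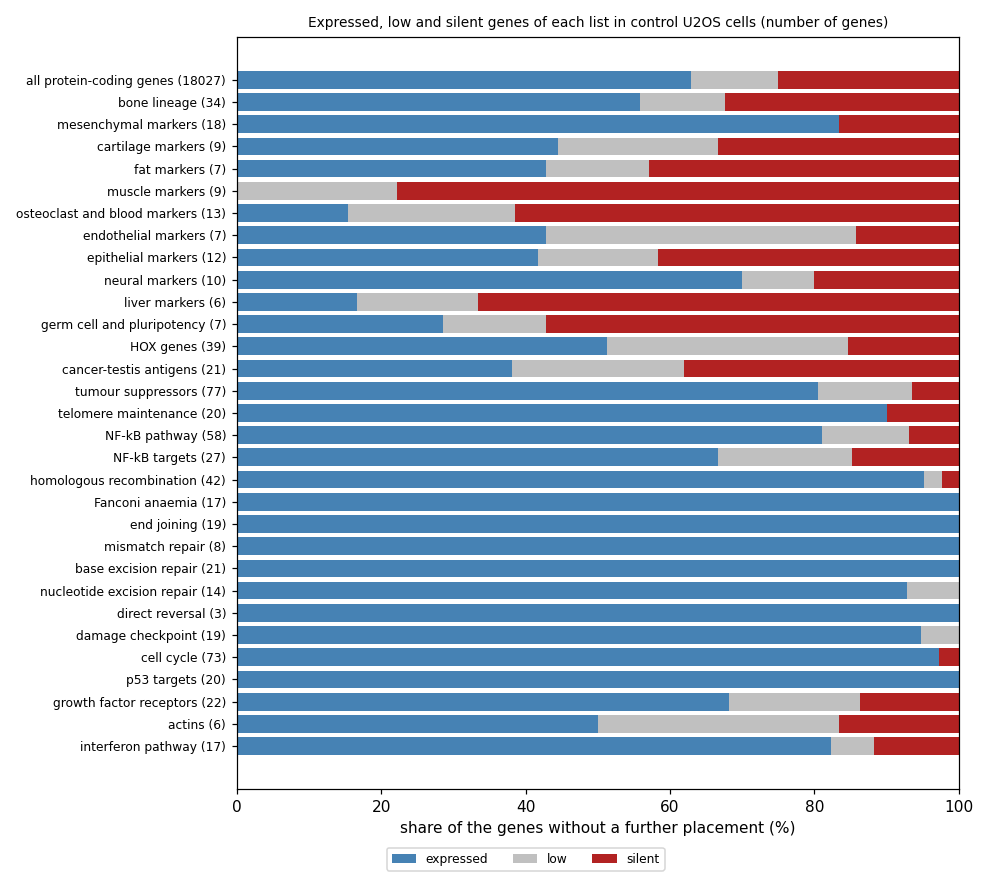
Share of genes (x axis, percent) that were expressed, low or silent in the 3 control libraries, for all protein-coding genes and for 30 gene lists (y axis, with the number of genes without a further placement). Repair, cell cycle and p53 target lists are nearly all blue, and muscle, blood, liver and germ cell lists are mostly red.

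The most abundant transcripts were those of the cytoskeleton, glycolysis, chaperones and translation. The 100 highest genes held 15.8% ± 0.955 (SD, n = 3) of the counts, and 13 of the 15 highest protein-coding genes were among the top 15 in all 3 libraries. ACTB, the main cytoplasmic actin, was first, at 10141, 12350 and 12148 CPM in replicates 1, 2 and 3. GAPDH, a glycolytic enzyme, reached 5503, 6444 and 5912 CPM. The glycolytic enzymes ENO1 and PKM stood at 5077 ± 125 and 4200 ± 83.2 CPM (mean ± SD, n = 3). Among chaperones, HSP90AB1 was at 3750 ± 26.1 and HSPA8 at 2958 ± 356 CPM. Structural proteins followed, with the mesenchymal intermediate filament VIM at 2913 ± 242, the second cytoplasmic actin ACTG1 at 2817 ± 106 and the actin crosslinker FLNA at 2807 ± 52.7 CPM. The ribosomal protein gene RPL8 read 1671 CPM in replicate 1 against 3583 and 3146 in the other libraries, and RPLP1 read 1387 against 2509 and 2373. The remaining members of the top 15 were the elongation factor EEF2, the RNA-binding protein HNRNPA2B1, the dehydrogenase DHRS2 and the annexin ANXA2, between 2145 and 2406 CPM.

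Per length, short transcripts moved up. ACTB kept the highest level at 13493 ± 782 TPM, and TMSB10, a small actin-binding peptide, came next at 12815 ± 3706 TPM, within the spread of ACTB's level. GAPDH followed at 8222 ± 339 TPM, then the ferritin light chain FTL at 5772 ± 703, RPL8 at 5288 ± 1692 and HSP90AB1 at 5192 ± 235 TPM. The last 3 do not differ beyond their spread. LGALS1, a galactose-binding lectin, stood at 4825 ± 1356 TPM, the metal-binding protein MT2A at 4094 ± 1482 and the peroxidase PRDX1 at 3539 ± 123 TPM. RPS12, RPS21, RPL41 and RPLP1 of the ribosome lay between 2610 and 4397 TPM. With the length of the longest transcript in place of the exonic union, TMSB10 fell from 12815 to 8943 TPM and RPL8 rose from 5288 to 7651, so places within the top 15 depend on the length used.

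Bone lineage genes were partly expressed. Of 34 genes without a further placement, 19 were expressed, 4 low and 11 silent, beside 62.9% expressed among all such protein-coding genes. Of 6 early matrix and enzyme genes, 4 were expressed, 1 was low and 1 silent, and 3 had a mean above 100 CPM. SPARC, a collagen-binding matrix protein, read 1194, 1555 and 1545 CPM, the fibronectin gene FN1 1188, 1313 and 1232 CPM, and COL1A1, the main chain of type I collagen, 649, 1043 and 904 CPM. COL1A2, which codes for the partner chain of type I collagen, stood at 0.946, 1.09 and 1.15 CPM. All 3 libraries thus showed abundant COL1A1 and nearly no COL1A2, at 361 and 0.392 TPM. ALPL, the alkaline phosphatase of mineralising cells, was expressed at 5.00 ± 1.43 CPM. POSTN, which encodes the matrix protein periostin, was silent, with at most 1 count in a library. Among 7 late matrix genes, SPP1 (osteopontin) was the single expressed member, at 16.2, 7.59 and 7.68 CPM. BGLAP (osteocalcin), IBSP (bone sialoprotein), DMP1, MEPE and the osteocyte signal SOST had at most 3 counts in any library, and the phosphate regulator PHEX was low at 0.461 ± 0.0854 CPM. The overlap of BGLAP with other genes is not given here, and its count may be uncertain.

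The lineage factors were split as well. RUNX2, which commits cells to the bone lineage, stood at 13.9, 10.4 and 10.9 CPM. MSX1 and MSX2, homeobox factors of skull and limb, were expressed at 15.03 ± 5.69 and 7.09 ± 0.748 CPM. SOX9, the cartilage and progenitor factor, was higher per length than RUNX2, at 139 against 5.94 TPM, and ATF4, a stress and osteoblast factor, stood at 383 TPM. SP7, DLX5 and TWIST1 had 0 counts in all 3 libraries. Of the signalling genes, BMP4 (43.2 ± 10.3 CPM), BMP2 (11.3 ± 0.715 CPM), BMPR2 (94.4 ± 30.6 CPM), FGFR1 (96.3 ± 10.3 CPM) and the RANKL decoy TNFRSF11B (31.9 ± 2.98 CPM) were expressed. TNFSF11, which encodes RANKL itself, had 0 counts in every library, and the WNT inhibitor DKK1 was low at 0.463 ± 0.0546 CPM.

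Of 18 mesenchymal genes 15 were expressed and 3 silent, beside 62.9% expressed among all protein-coding genes without a further placement. The hyaluronan receptor CD44 read 622, 587 and 600 CPM, the adhesion protein ALCAM 610, 346 and 396 CPM, and THY1 197, 263 and 223 CPM. The neural cadherin CDH2 was at 107 ± 12.1 CPM, while the epithelial cadherin CDH1 was at 1.46 ± 0.224 CPM. The surface enzyme NT5E, a stromal cell marker, was silent at 0.0930 ± 0.0826 CPM. Of 12 epithelial genes 5 were expressed (41.7%), 2 low and 5 silent, a smaller expressed share than among all protein-coding genes. Among them the keratin pair KRT18 (517 ± 93.6 CPM) and KRT8 (264 ± 46.9 CPM) was abundant, EPCAM stood at 1.52 ± 0.363 CPM, and KRT19, CLDN3, ESRP1, GRHL2 and OVOL1 were silent. The factors SNAI2 (11.5 ± 4.41 CPM), ZEB1 (38.3 ± 9.34 CPM) and PRRX1 (5.35 ± 1.43 CPM) were expressed, and ZEB2 and FOXC2 were silent.

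**Figure D3:**
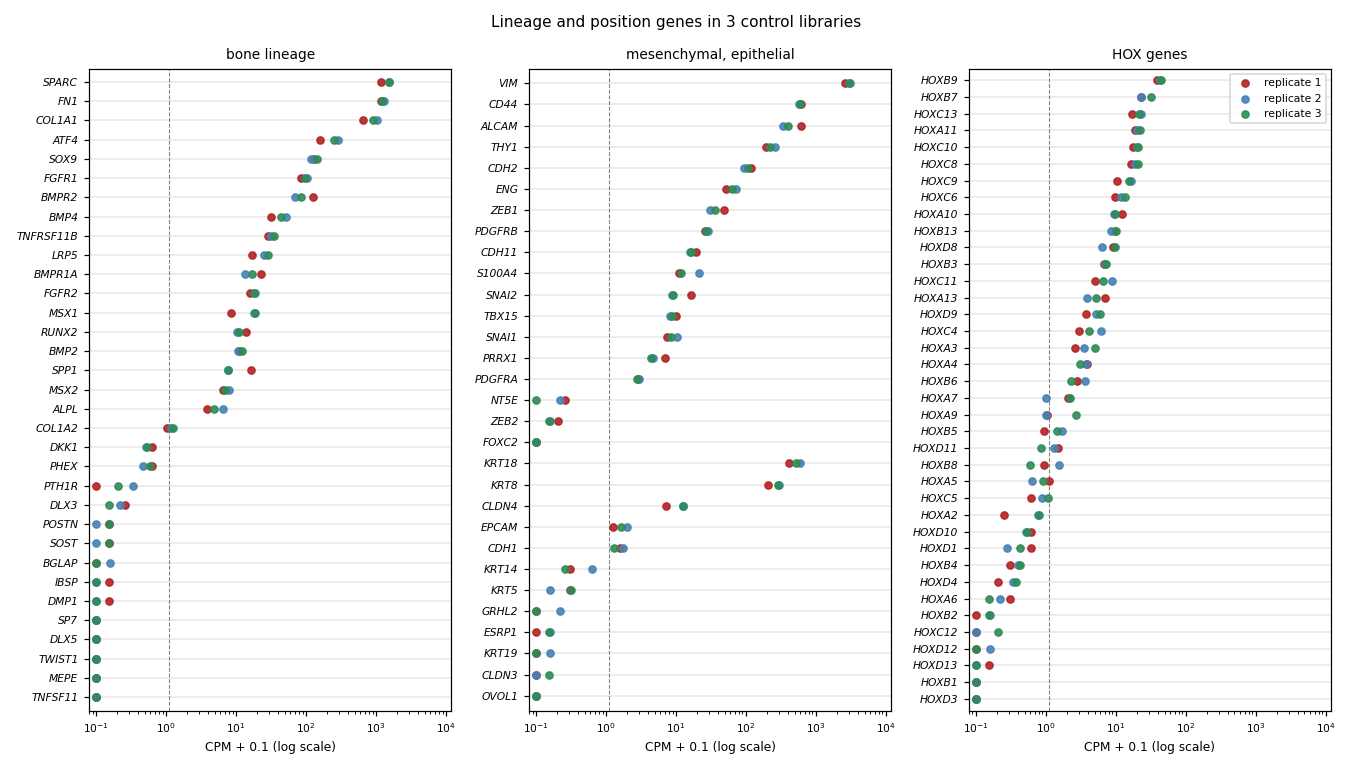
Levels of bone lineage, mesenchymal and epithelial, and HOX genes in the 3 control libraries (x axis, CPM + 0.1 on a log scale; each point is 1 library, points at the same level overlap, dashed line at 1 CPM). SPARC, FN1 and COL1A1 lie above 100 CPM, COL1A2 and ALPL far below them, and the late matrix genes other than SPP1 near 0, and for most genes the 3 libraries lie close together relative to the range between genes.

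In most lists of other tissues fewer genes were expressed than the 62.9% of all protein-coding genes without a further placement. All of the 9 muscle genes without a further placement were below 1 CPM in at least 1 library, with MYOD1, MYOG, MYF5, MYF6 and DES at 0 counts throughout. Of 13 osteoclast and blood genes, ACP5 (1.31 ± 0.0779 CPM) and HBB (5.87 ± 1.04 CPM) were expressed and 8 were silent, among them CD3E and LYZ at 0 counts. HBA1 and HBA2, which are near-identical copies, had at most 2 counts in a library, and their counts are uncertain. Of 6 liver genes only AFP was expressed, at 1.93 ± 0.488 CPM. The endothelial list had 3 of 7 expressed, led by the factor ERG at 7.69 ± 1.44 CPM, with KDR silent. Of 9 cartilage genes 4 were expressed, the matrix genes MATN3 (14.1 ± 2.65 CPM) and ACAN (1.08 ± 0.0642 CPM) and the factors SOX5 (2.78 ± 1.24 CPM) and SOX6 (3.54 ± 0.605 CPM). COL2A1, the main cartilage collagen, was silent at 0.113 ± 0.0565 CPM, and COMP and COL9A1 had 0 counts. Of 7 fat genes 3 were expressed, the master factor PPARG at 22.2 ± 3.84, the lipase LPL at 7.28 ± 1.79 and the factor CEBPA at 1.46 ± 0.224 CPM, and ADIPOQ and LEP had 0 counts. The neural list had 7 of 10 expressed, a share near that of all protein-coding genes, including the tubulin TUBB3 at 85.1 ± 16.9 and the neurofilament NEFL at 68.8 ± 8.03 CPM.

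HOX genes, which record position along the body axis, were expressed in all 4 clusters, 20 of 39 in total. That is 51.3%, beside 62.9% expressed among all protein-coding genes without a further placement. HOXB9 was the highest by CPM at 39.5, 43.6 and 43.9, and HOXB7 reached 70.0 TPM against 67.6 TPM for HOXB9, a gap within their spread. The HOXC cluster had 7 of 9 genes expressed, with HOXC8 (18.7 ± 2.09), HOXC10 (19.5 ± 1.67) and HOXC13 (20.7 ± 3.08 CPM) at like levels. In the HOXA cluster, HOXA11 stood at 20.4 ± 1.67 and HOXA10 at 10.4 ± 1.61 CPM. The HOXD cluster had only HOXD8 and HOXD9 expressed, at 8.35 ± 1.84 and 4.92 ± 1.11 CPM. HOXB1, HOXB2, HOXC12, HOXD3, HOXD12 and HOXD13 were silent. HOXD3 shares 62.2% of its exonic length with another gene on the same strand, and its 0 is uncertain.

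Cancer-testis antigens are genes normally restricted to germ cells and often active in tumours, and many of them are X-linked. Of 21 without a further placement, 8 were expressed, 5 low and 8 silent, beside 62.9% expressed among all such protein-coding genes, and 5 had a mean above 100 CPM. MAGEA4 read 354, 266 and 333 CPM, MAGEB2 197, 204 and 209, MAGEA1 185, 162 and 198, and MAGEC1 174, 147 and 149 CPM. MAGEA12 stood at 133 ± 12.2 CPM. Per length, MAGEB2 (521 TPM), MAGEA1 (439 TPM) and MAGEA4 (427 TPM) exceeded the median of expressed protein-coding genes, 28.1 TPM. MAGEA3 and MAGEA6, which are close copies, read 25.3 ± 3.37 and 78.5 ± 4.14 CPM, and reads may be split between them. Their relatives MAGEC2 (0.198 ± 0.129 CPM) and MAGEA10 (0.0560 ± 0.00420 CPM) were nearly absent. Other silent X-linked members were SSX1, with at most 3 counts in a library, and MAGEA2, SSX2 and CTAG1B, which have close copies and whose 0 counts are uncertain. The germ cell genes DAZL, SYCP1 and BRDT had 0 counts in all libraries, as did the pluripotency factor NANOG and the RNA-binding protein LIN28A. LIN28B, the paralog of LIN28A, was expressed at 72.1, 32.7 and 45.1 CPM. Of the 7 germ cell and pluripotency genes without a further placement, 2 were expressed, LIN28B among them, 1 low and 4 silent.

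Most tumour suppressors were expressed. Of 77 without a further placement, 62 were expressed, 10 low and 5 silent, beside 62.9% expressed and 25.04% silent among all such protein-coding genes, and 11 of 11 genome maintenance genes were expressed. The 5 silent genes were CDKN2A, SFRP2, SFRP5, WIF1 and GATA5. CDKN2A encodes p16 and p14ARF, which restrain CDK4 and MDM2. SFRP2, SFRP5 and WIF1 encode secreted inhibitors of WNT signalling, and GATA5 is a transcription factor. The first 4 had 0 counts in every library, and GATA5 had at most 3. Other members of the WNT group were present, with DKK3 at 183, 204 and 200 CPM, SFRP1 at 43.0, 27.3 and 27.5 CPM, APC at 43.0 ± 9.70 and AXIN1 at 37.7 ± 10.0 CPM. Low genes included the nuclear receptors RARB (0.476 ± 0.275 CPM) and ESR1 (0.355 ± 0.117 CPM), the kinase DAPK1 (0.426 ± 0.201 CPM), HIC1 (0.231 ± 0.201 CPM) and TP63 (0.179 ± 0.155 CPM). RASSF1, which is silenced in many tumours, stood at 29.5, 42.1 and 43.9 CPM, and MGMT, which repairs alkylated guanine, at 6.57, 12.0 and 10.1 CPM. With a limit of 10 counts in place of 3, 14 of all 82 suppressors would be silent in place of 9.

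**Figure D4:**
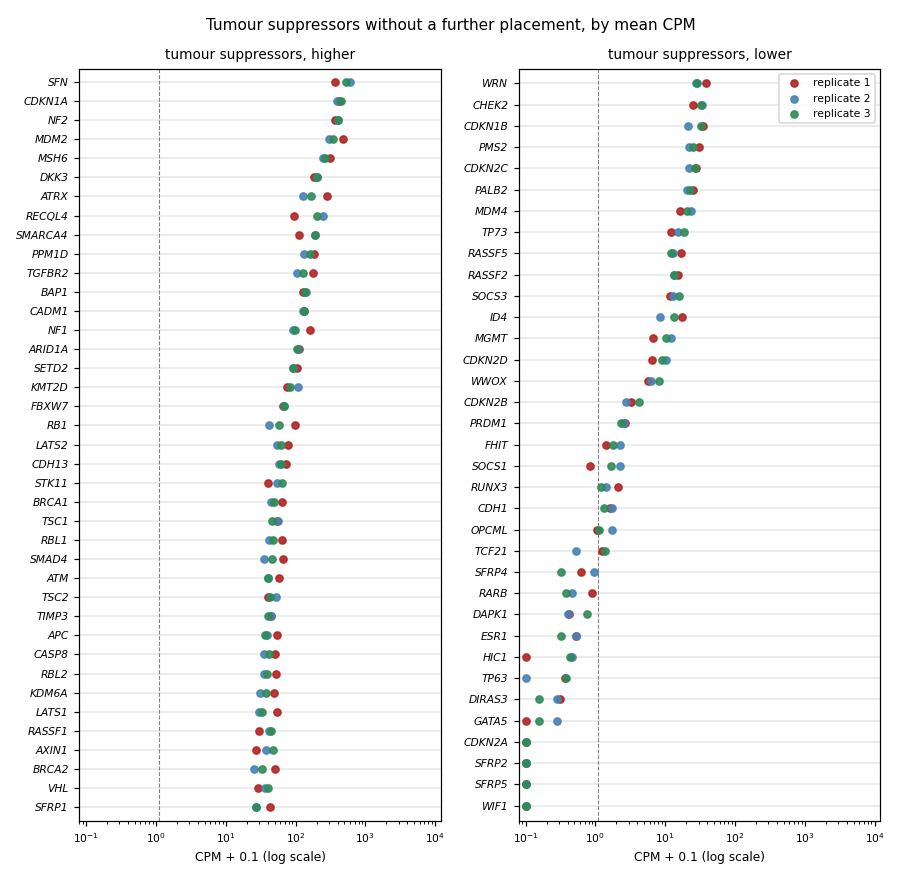
Levels of 74 of the 77 tumour suppressors without a further placement, ordered by mean CPM (x axis, CPM + 0.1 on a log scale; each point is 1 library, points at the same level overlap, dashed line at 1 CPM). SFN, CDKN1A and NF2 are at the top, and CDKN2A, SFRP2, SFRP5 and WIF1 are at 0 in all 3 libraries.

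Genes beside the silent suppressors were expressed about as often as protein-coding genes in general. Of the 20 protein-coding genes that are the nearest 2 on either side of these 5 suppressors, 12 were expressed, 3 low and 5 silent, beside 59.3% expressed and 28.6% silent among all protein-coding genes, and each suppressor had at least 1 expressed neighbour. CDKN2A lies on chromosome 9 at 21967753 to 21995301 of GRCh38, minus strand. MTAP, a methionine salvage enzyme that lies 30.1 kb from it, read 90.7, 70.7 and 87.3 CPM. CDKN2B, which encodes the sister inhibitor p15 and lies 7.602 kb away on the other side, read 3.10, 2.67 and 4.17 CPM, and DMRTA1 beyond it 10.3, 7.35 and 9.27 CPM. All 4 neighbours of WIF1 on chromosome 12 were expressed, among them TBC1D30 at 4.44 ± 0.706, LEMD3 at 46.5 ± 12.6 and MSRB3 at 38.7 ± 4.24 CPM. SFRP5 lies 5.84 kb from ZFYVE27, a gene at 28.0 ± 5.81 CPM. Around SFRP2, 3 of the 4 neighbours were silent, TLR2 among them, and PLRG1 reached 154 ± 12.8 CPM. DCHS2, another of these neighbours, has a further placement.

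The promoter windows of silent genes are given as a description. RefSeq promoter windows (GRCh38.p14, 250 bases before to 50 after the start) were matched for 14947 genes, and 11048 were used, those without a further placement whose start lay within 500 bases of the GENCODE start. A window was termed CpG-rich at a GC content of 50% or more and a ratio of observed to chance CpG of at least 0.6. That held for 67.2% of all windows, 84.8% of 7231 windows of expressed genes and 26.9% of 2655 windows of silent genes. For CDKN2A, SFRP5 and WIF1 it held, for SFRP2 the ratio was 0.553, and GATA5 had no window. Of the 11 silent bone genes without a further placement, 7 had a window that was used, and none of these 7 was CpG-rich. They are matrix and signalling genes. The silent bone transcription factors, such as SP7, DLX5 and TWIST1, had no window that was used. The sequences below are the 120 bases before the start, 5′ to 3′ on the gene's strand with each CpG in capitals, shown to set silent genes with a CpG-rich start (CDKN2A, WIF1, TERT) beside expressed ones (CDKN2B, CDC6) and silent bone genes (IBSP, MEPE).
CDKN2A: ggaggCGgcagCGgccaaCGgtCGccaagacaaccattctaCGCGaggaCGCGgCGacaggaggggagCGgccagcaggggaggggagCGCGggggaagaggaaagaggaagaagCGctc
WIF1: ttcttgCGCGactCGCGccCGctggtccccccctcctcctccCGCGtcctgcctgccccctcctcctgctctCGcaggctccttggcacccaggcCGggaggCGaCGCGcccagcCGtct
TERT: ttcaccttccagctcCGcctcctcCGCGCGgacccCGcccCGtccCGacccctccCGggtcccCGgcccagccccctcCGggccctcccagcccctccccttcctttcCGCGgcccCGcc
CDKN2B: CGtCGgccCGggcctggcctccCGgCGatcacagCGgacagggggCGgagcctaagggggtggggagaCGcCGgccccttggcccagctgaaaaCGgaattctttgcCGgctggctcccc
CDC6: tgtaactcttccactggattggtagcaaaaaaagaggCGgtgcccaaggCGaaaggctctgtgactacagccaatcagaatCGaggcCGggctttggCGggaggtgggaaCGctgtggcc
IBSP: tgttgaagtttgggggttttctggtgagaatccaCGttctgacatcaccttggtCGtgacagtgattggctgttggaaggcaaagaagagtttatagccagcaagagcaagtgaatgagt
MEPE: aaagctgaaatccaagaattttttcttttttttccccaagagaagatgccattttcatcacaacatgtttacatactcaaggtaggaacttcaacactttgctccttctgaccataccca

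The 120 bases hold 13 CpG each in CDKN2A (chr9:21995325-21995444, minus strand), WIF1 (chr12:65121306-65121425, minus) and TERT (chr5:1295069-1295188, minus). CDKN2B (chr9:22009306-22009425, minus) holds 11 and CDC6 (chr17:40287759-40287878, plus) 6. IBSP (chr4:87799434-87799553, plus) holds 2 and MEPE (chr4:87821278-87821397, plus) none. Over the full 300 bases the observed to chance ratio was 1.13 in CDKN2A, 0.876 in WIF1, 0.849 in TERT, 0.736 in CDKN2B and 0.834 in CDC6, against 0.304 in IBSP and 0.224 in MEPE. The motif TATAAA, on either strand, occurred in 9.03% of all windows, 4.98% of those of expressed genes and 19.5% of those of silent genes. It occurred in 3 of the 7 silent bone windows, IBSP among them, and in none of the 4 silent suppressor windows. The motif GGGCGG, on either strand, occurred in 60.9% of all windows, 72.5% of the expressed and 32.5% of the silent. A gene can have further starts that these windows do not cover. CDKN2A, for example, has separate starts for its pair of products, and the window is that of the outer start. These are letters in the reference genome, and methylation was not measured.

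The p53 and RB pathways were otherwise present at the transcript level. MDM2, the ligase that degrades p53, read 483, 297 and 346 CPM, and the phosphatase PPM1D, which also restrains p53, read 184, 130 and 162 CPM. RB1 read 99.6 CPM in replicate 1 against 41.6 and 58.6 in the others, a mean of 66.6 that is 50.1 without replicate 1. CDKN1A, encoding the p53-induced CDK inhibitor p21, was the highest of the CDK inhibitors per length at 566 TPM, with 414, 397 and 444 CPM. CDKN1B (p27) followed at 43.2 TPM, CDKN2C (p18) at 31.6 and CDKN2D (p19) at 23.3 TPM. Of 20 p53 target genes without a further placement, all 20 were expressed, beside 62.9% of all such protein-coding genes. A mean above 100 CPM was seen in 14 of them, beside 2459 of all 19280 protein-coding genes. The apoptosis gene BAX read 214 ± 55.0 CPM, the ribonucleotide reductase subunit RRM2B 516, 217 and 307 CPM, and FDXR 129, 223 and 242 CPM. RRM2B was highest and FDXR lowest in replicate 1.

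TERT, which codes for the catalytic subunit of telomerase, had 0 counts in all 3 libraries, while 5 of 5 genes for its partner proteins were expressed. DKC1 read 331, 353 and 365 CPM, and NOP10 (1428 TPM), NHP2 (268 TPM), GAR1 (135 TPM) and WRAP53 (36.4 TPM) were all above the median of expressed protein-coding genes. These partners also serve other small RNAs. Of the proteins that cap telomeres, TERF2IP (59.2 ± 4.36 CPM), TERF2 (42.5 ± 3.13 CPM), ACD (31.4 ± 7.20 CPM), POT1 (23.2 ± 5.60 CPM) and TERF1 (23.2 ± 4.31 CPM) were expressed. ATRX, a chromatin remodeller whose loss is linked to ALT, gave 280, 128 and 167 CPM. A transcript level does not show whether the full-length protein is made. Its partner DAXX has 4 further placements and cannot be read. PML (33.0 ± 5.02 CPM) and SP100 (64.9 ± 6.20 CPM), proteins of the nuclear bodies found at ALT telomeres, were expressed, as was SLX4IP at 22.9, 13.4 and 14.5 CPM. The CST subunit gene TEN1 had 0 counts and shares 75.4% of its exonic length with another gene on its strand.

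All 5 NF-kB subunits were expressed. RELA read 135, 124 and 142 CPM, NFKB2 80.6, 123 and 117, NFKB1 70.9, 57.1 and 67.1, RELB 17.1, 29.4 and 34.1, and REL 21.7, 9.11 and 13.1 CPM. NFKB2 and RELB were lowest in replicate 1, where REL was highest. Per length the order was RELA (101 TPM), NFKB2 (97.6), NFKB1 (43.0), RELB (36.2) and REL (4.65 TPM). RELA and NFKB2 do not differ beyond their spread, and neither do NFKB1 and RELB. REL shares 43.3% of its exonic length with another gene on the same strand, so its level is uncertain.

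The regulators around the subunits were nearly all present, beside 62.9% expressed among all protein-coding genes without a further placement. Of 10 inhibitor genes without a further placement all 10 were expressed, led per length by TNIP1 (152 TPM), NFKBIA (95.6 TPM), NFKBIE (75.7 TPM) and TNIP2 (58.6 TPM). NFKBIA, encoding the IkB alpha that holds RELA in the cytoplasm, read 50.8, 61.1 and 53.4 CPM, and TNFAIP3, encoding the deubiquitinase A20, 43.3, 36.1 and 36.6 CPM. All 10 kinases and their partners were expressed. The non-canonical kinase MAP3K14 read 31.6, 38.6 and 35.2 CPM, and TRAF3, which keeps that kinase low, 49.5, 37.8 and 47.8 CPM. For the IKK complex, CHUK (IKK alpha) stood at 55.0 ± 16.2, IKBKB (IKK beta) at 33.4 ± 3.75 and IKBKG at 17.4 ± 1.04 CPM. All 12 adaptors were expressed as well, with the kinase IRAK1 highest at 797, 718 and 829 CPM, and BIRC2 at 147, 91.1 and 113 CPM.

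Of 14 receptor genes 9 were expressed (64.3%), a share near the 62.9% of all protein-coding genes without a further placement. TNFRSF12A, the receptor for TWEAK, was highest per length at 797 TPM and read 220, 472 and 391 CPM. The TNF receptor TNFRSF1A stood at 124, 145 and 155 CPM, CD40 at 72.2, 108 and 95.1, and the lymphotoxin receptor LTBR at 74.1, 115 and 101 CPM. CD40, LTBR and TNFRSF12A signal to the non-canonical arm. TLR4, the receptor for bacterial lipopolysaccharide, was expressed at 236, 109 and 132 CPM, and TLR2 had 0 counts. Of 7 ligands without a further placement only IL1A was expressed, at 3.77 ± 0.580 CPM. IL1B (0.364 ± 0.173 CPM), TNFSF12 (1.02 ± 0.475 CPM) and TNFSF13B (0.129 ± 0.0780 CPM) were low, and CD40LG and TNFSF11 had 0 counts. How far TNFSF12 overlaps other genes is not given here, and its level may be uncertain. The receptors had a median of 7.17 TPM and the adaptors of 20.9 TPM, beside 5.48 TPM over all protein-coding genes and 28.1 TPM over the expressed ones, and 3 receptors and 2 adaptors had a mean above 100 CPM.

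Among known NF-kB target genes, 18 of 27 without a further placement were expressed, which is 66.7% beside 62.9% of all such protein-coding genes; the list was not tested. The anti-apoptotic BCL2L1 read 260, 281 and 275 CPM, the protease MMP3 226, 168 and 172, and SOD2 230, 147 and 174 CPM. The cytokines LIF (66.1 ± 17.8 CPM), CSF1 (46.7 ± 5.30 CPM) and IL11 (24.2 ± 8.26 CPM) were the highest of their group by CPM. CXCL8 stood at 6.01 ± 1.17, CCL2 at 5.16 ± 1.91 and IL6 at 0.770 ± 0.336 CPM. CXCL1, CXCL2 and VCAM1 had 0 counts throughout. MMP9 read 14.1 CPM in replicate 1 against 46.2 and 45.6 in the other libraries.

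**Figure D5:**
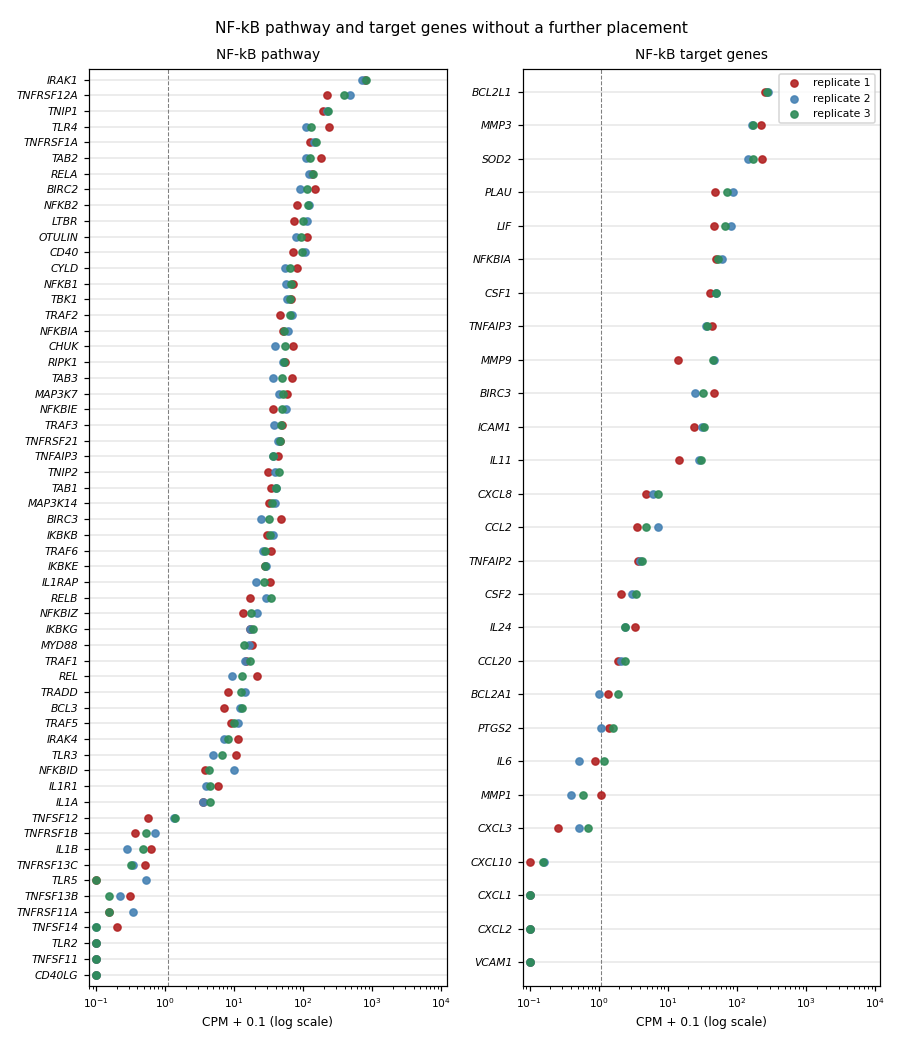
Levels of NF-kB pathway genes (left) and NF-kB target genes (right) without a further placement in the 3 control libraries (x axis, CPM + 0.1 on a log scale; each point is 1 library, points at the same level overlap, dashed line at 1 CPM). IRAK1 and TNFRSF12A are at the top of the pathway, RELA lies above RELB in each library, and the ligands lie at the bottom.

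DNA repair genes were nearly all expressed, beside 62.9% of all protein-coding genes without a further placement. In homologous recombination, which copies a break from the sister chromatid, 40 of 42 genes without a further placement were expressed. The exceptions were DMC1, the meiotic recombinase, at 0.226 ± 0.113 CPM, and SLX1A, a near-identical copy of a second gene, at 0 counts. RAD51C, a recombinase paralog, read 164, 181 and 181 CPM, BRCA1 64.0, 44.0 and 48.4, and BRCA2 51.5, 24.95 and 33.3 CPM. The single-strand binding subunits RPA2 (242 TPM), RPA3 (186 TPM) and RPA1 (144 TPM) were the highest of the resection group per length.

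End joining, which ligates broken ends directly, had 19 of 19 genes expressed, beside 62.9% of all protein-coding genes without a further placement. XRCC6 and XRCC5, the subunits of the Ku end-binding complex, stood at 962 and 506 TPM. XRCC6 read 777, 735 and 787 CPM, XRCC5 722, 633 and 651, and the kinase PRKDC 868, 564 and 614 CPM. TP53BP1, which favours end joining, stood at 79.5 ± 10.7 CPM, its partner RIF1 at 137 ± 37.2 and the alternative end joining polymerase POLQ at 35.4 ± 4.72 CPM. Mismatch repair had 8 of 8 expressed, with MSH6 at 104 and EXO1 at 57.9 TPM. Fanconi anaemia genes, which act on crosslinks, had 17 of 17 expressed, with USP1 (183 TPM), UBE2T (179 TPM), FANCG (124 TPM) and FANCI (86.7 TPM) highest. Base excision repair had 21 of 21 expressed, with APEX1 (706 TPM) and FEN1 (552 TPM) far above the glycosylases UNG (155 TPM), MPG (51.3 TPM) and MBD4 (39.1 TPM). In nucleotide excision repair 13 of 14 were expressed, led by RAD23B (353 TPM) and DDB1 (148 TPM). ERCC5 was low at 1.04 ± 0.378 CPM and shares 63.2% of its exonic length with another gene. In the damage checkpoint list 18 of 19 were expressed, with CHEK1 at 72.6 ± 9.46, ATR at 39.4 ± 8.55 and ATM at 45.8 ± 9.98 CPM. ATRIP, the partner of ATR, was low at 0.422 ± 0.288 CPM, but its overlap with other genes is not given here and this level may be uncertain.

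Cell cycle genes were among the well-expressed ones. Of 73 genes without a further placement 71 were expressed, beside 62.9% of all such protein-coding genes. A mean above 100 CPM was seen in 36 of all 76, beside 2459 of all 19280 protein-coding genes. The median of the expressed members was 105 TPM beside 28.1 TPM over all expressed protein-coding genes. Among G1 genes, CDK4 (323 TPM), CCND1 (307 TPM), CDK6 (199 TPM) and the E cyclin CCNE1 (184 TPM) were highest, and CDK6 read 819 CPM in replicate 1 against 395 and 537. CCND2 read 276, 309 and 328 CPM. In the mitotic group CCNB1 read 470, 458 and 454 CPM, CDC20 328, 406 and 375, CCNB2 223, 221 and 227, and AURKA 224, 220 and 219 CPM. CCNA1, the germ cell A cyclin, was silent, and CCNA2, its counterpart in dividing cells, stood at 164 ± 36.1 CPM.

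All 24 replication genes were expressed. PCNA, the sliding clamp, read 364, 338 and 358 CPM, the helicase subunit MCM7 709, 793 and 779, and RRM2, which supplies deoxynucleotides, 763, 574 and 691 CPM. The licensing factor CDC6 was among the 10 least variable genes above 10 CPM, at 196, 197 and 195 CPM, while its partner CDT1 read 38.3, 73.1 and 80.5 CPM. Of the E2F group, TFDP1 (265 TPM), E2F1 (94.0 TPM), E2F4 (86.8 TPM) and E2F7 (61.4 TPM) were highest. The proliferation markers MYBL2 (463 ± 4.67 CPM), FOXM1 (319 ± 38.9 CPM) and BIRC5 (222 ± 12.2 CPM) were expressed, and MYC stood at 182, 204 and 209 CPM. MKI67 and TOP2A moved in opposite ways in replicate 1. MKI67 read 86.2, 296 and 242 CPM, and TOP2A 717, 432 and 508 CPM. The SD of MKI67 was 109 on a mean of 208 CPM.

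The spread between libraries set how firmly a level can be read. The common biological coefficient of variation over the 3 libraries was 0.215, and 0.113 from replicates 2 and 3 alone. The median coefficient of variation was 19.7% for the 3236 expressed genes with a mean of 1 to 10 CPM, 15.7% for the 6811 genes at 10 to 100 CPM and 13.3% for the 2408 genes at 100 to 1000 CPM. Without replicate 1 these medians were 12.4%, 7.75% and 6.79%. The 10 least variable genes above 10 CPM included PI4KB (106.9 ± 0.250 CPM), a lipid kinase, the transcription factor TFE3 (178 ± 0.566 CPM), PHGDH (77.4 ± 0.289 CPM), which starts serine synthesis, and UBA1 (773 ± 2.98 CPM), the main ubiquitin-activating enzyme. These SDs lie below counting error alone, as for PI4KB with 2034, 1756 and 1953 counts. Among many genes in 3 libraries such agreement can arise by chance. These genes, like CDC6 above, are therefore not shown to be steadier than others. The 10 most variable included SLC7A11, a cystine transporter, at 41.8, 13.5 and 13.4 CPM, GULP1 at 56.1, 13.3 and 21.4 CPM, ZBTB41 at 31.7, 7.77 and 11.7 CPM and LCAT at 4.99, 29.1 and 13.6 CPM. NME2 had the largest coefficient, 88.5%, with 12.7, 33.3 and 90.3 CPM, and unlike the others named it was highest in replicate 3. It shares 22.9% of its exonic length with another gene on the same strand.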

How the data were processed

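RNA from 3 control samples was sequenced on an Illumina instrument. Per the submitters' processing notes, Trimmomatic 0.38, STAR 2.7.1a, Subread 1.6.4 and GRCh38.p13 were used. The annotation, settings and strand use were not given in the sources used here. The authors deposited whole-number counts per gene symbol, 44608 entries per table. Entries with a number suffix (5005) were kept out of the gene levels. The totals, 16330036 to 18987115 counts, were scaled by TMM (edgeR 4.0.16, R 4.3.3), which gave CPM. Of the other entries, 27171 were matched to GENCODE 29, 26604 of them by symbol, and TPM used their union of exons. No test was run. Dispersion estimation was tested on simulated data. Alternatives were plain totals, DESeq2 1.42.0 size factors, other limits for expressed and silent, other lengths, suffix entries summed, mitochondrial entries left out and each library left out. Leaving out genes with a further placement was chosen after seeing the data. The members and the 30 lists (644 genes) were chosen with earlier results of these data known. Genes named are the 15 highest by CPM and by TPM, genes from the 10 most and least variable above 10 CPM, members of small roles, the 4 highest per length and the silent of other lists, and the nearest 2 genes on each side of silent suppressors. Other list members were named after their values were seen. Some list members are counted but not named or plotted here.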

Additional observations from a re-analysis of the deposited data

How the results depend on the processing

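The number of expressed genes, 12524, ranged from 12550 with plain totals or DESeq2 size factors to 11522 at a minimum of 2 CPM and 13593 at 0.5 CPM, and from 12638 to 12822 when a library was left out. The number of silent genes, 21972, was 16528 with 0 counts required in every library, 24811 at up to 10 counts, 19588 without genes that have a further placement, 21925 with suffix entries summed, and 22364 to 22519 when a library was left out. Silent tumour suppressors numbered 9 under the main limit, 14 at up to 10 counts, 5 without genes that have a further placement (chosen after seeing the data), and 9 to 10 with a library left out. The share of counts in the 100 highest genes was 15.3% to 16.3% with a library left out. The common biological coefficient of variation was 0.113 without replicate 1, 0.212 without replicate 2 and 0.281 without replicate 3. Of 524 mean TPM values, 288 moved by more than 1 SD with the longest transcript as length. Of 525 mean CPM values, none moved by that much with plain totals or DESeq2 size factors. At a minimum of 2 CPM the expressed count moved by more than 1.5 times in 6 of 30 lists, all with at most 5 expressed members under the main limit. No paired analysis was possible because only 1 group was used.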

Other observations

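Growth factor receptors, the interferon pathway, the actin family and long noncoding RNAs add to the description. Of 22 receptor kinases, 15 were expressed (68.2%), a share near the 62.9% of all protein-coding genes without a further placement. The highest per length were AXL (542 TPM), EPHA2 (312 TPM), MET (107 TPM) and IGF1R (79.4 TPM). AXL, a receptor of mesenchymal tumour cells, read 717, 647 and 662 CPM, and MET, the hepatocyte growth factor receptor, 244, 146 and 153 CPM. EGFR stood at 68.7 ± 7.01 and ERBB2 at 53.9 ± 7.55 CPM. The PDGF receptors differed, at 27.4 ± 1.19 CPM for PDGFRB and 2.79 ± 0.0920 for PDGFRA. KIT, KDR and RET were silent.

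In the interferon pathway, 14 of 17 genes without a further placement were expressed, beside 62.9% of all such protein-coding genes. The receptor subunits IFNAR1 (104 ± 19.6 CPM) and IFNAR2 (19.7 ± 0.927 CPM), and the DNA sensor CGAS (19.4, 22.2 and 27.9 CPM) were present. The interferon genes IFNB1 and IFNL1 had 0 counts in all libraries. Among induced genes, ISG15 read 13.6, 39.9 and 35.3 CPM, IFIT1 6.78, 2.73 and 3.45, and MX1 0.894, 1.03 and 1.04 CPM. ISG15 was lowest and IFIT1 highest in replicate 1. TMEM173 (STING), IRF7 and IRF9 have further placements and cannot be read.

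Among actins, ACTB and ACTG1 stood at 13493 and 3879 TPM, and the smooth muscle actin ACTA2 at 13.4 TPM. The muscle actins ACTC1 (0.791 ± 0.199 CPM), ACTG2 (0.359 ± 0.114 CPM) and ACTA1 (0.0560 ± 0.00420 CPM) were low or silent. This order held with the longest transcript as length.

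The 10 long noncoding RNAs with the highest CPM were looked up after the values were seen. DANCR read 229, 304 and 288 CPM, SNHG29 253, 231 and 278, and NORAD, a cytoplasmic RNA that binds Pumilio proteins, 345, 174 and 256 CPM. NEAT1, the scaffold of paraspeckles, read 124, 405 and 240 CPM, so that replicates 1 and 2 differed more than 2-fold. Of 3971 long noncoding genes, 450 were expressed and 2796 silent, and libraries selected by oligo-dT hold those with a poly(A) tail.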
